A study of Mus musculus with 4 samples.

Results

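The cells described here are mouse testis cells that a marker rule placed between pachytene and diplotene of meiotic prophase, 408 of the 29968 barcodes kept in the deposited matrix. A barcode had to show 500 or more genes, and no more than 10% of its UMI (unique molecular identifiers, each standing for 1 captured RNA molecule) could be mitochondrial. The rule then asked for at least 3 UMI of Pou5f2 plus Piwil1, and for a larger sum of this pair than of Prdm9, Gm960, Meiob, Zcwpw1 and Scml2, of Ccna1, Aurka, Nek2 and Cdc25c, and of Acrv1, Spaca1, Lyzl1 and Lyzl6. Tnp1, Tnp2, Prm1 and Prm2 together had to stay under 4% of UMI. The members thus were chosen by RNA levels, and the levels of these genes are a description of the choice.

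The study profiled testis cells of C57BL/6 mice at postnatal day 63 with droplet-based 3' end counting of polyadenylated RNA. Its 4 samples were 2 of Phf7 tKO, which the labels also give as Stra8-Cre:Phf7 f/f, and 2 of Phf7 f/f, the floxed allele alone. Stra8-Cre is active in premeiotic male germ cells. Separate animals behind each genotype's samples are not mentioned in the labels, so suffix spread may be technical. The deposited matrix pools the 4 samples, and its barcode suffixes 1 to 4 could not be tied to genotypes, so the genotypes were not compared, the matrix counts as 1 sample, and no p-value is given. The suffixes are shown as 4 unassigned libraries.

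Pachytene is the longest stage of meiotic prophase, in which paired homologues are held together by the synaptonemal complex and crossovers mature, and diplotene follows when that complex comes apart. In male cells the unpaired X and Y chromosomes are packed into the sex body and silenced, a state called meiotic sex chromosome inactivation, while the autosomes are transcribed heavily under factors such as A-MYB, the product of Mybl1. Much of the RNA for the later acrosome and flagellum is first made at this stage, along with the piRNA pathway that guards the germ line against transposons.

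The 4 genes that name these cells are Pou5f2, a POU-domain transcription factor of male germ cells, Piwil1, which encodes the piRNA-binding protein MIWI, Hspa2, a testis heat shock protein needed to take the synaptonemal complex apart, and Tbpl1, which encodes the TATA-box binding protein relative TRF2. The 250 bases before their RefSeq transcription starts (GRCm38.p6, the assembly of mm10) are shown because a MYB-family core motif can be looked for in them. The motif searched was AACTG on either strand, and capitals mark its match, which reads CAGTT where the motif is on the opposite strand. The intervals are chr13:78024652-78024901 on the plus strand for Pou5f2, chr5:128735996-128736245 on the plus strand for Piwil1, chr12:76404120-76404369 on the plus strand for Hspa2, and chr10:22731448-22731697 on the minus strand for Tbpl1.
Pou5f2: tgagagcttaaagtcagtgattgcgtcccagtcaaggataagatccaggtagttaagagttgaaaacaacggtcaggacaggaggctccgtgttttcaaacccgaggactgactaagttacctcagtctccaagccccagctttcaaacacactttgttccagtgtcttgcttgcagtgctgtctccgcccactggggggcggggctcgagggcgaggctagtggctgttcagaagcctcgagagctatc
Piwil1: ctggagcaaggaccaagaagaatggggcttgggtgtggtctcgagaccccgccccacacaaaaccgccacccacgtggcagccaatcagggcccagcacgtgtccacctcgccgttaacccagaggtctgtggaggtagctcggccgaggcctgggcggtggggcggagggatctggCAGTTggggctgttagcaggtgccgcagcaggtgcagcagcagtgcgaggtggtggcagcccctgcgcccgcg
Hspa2: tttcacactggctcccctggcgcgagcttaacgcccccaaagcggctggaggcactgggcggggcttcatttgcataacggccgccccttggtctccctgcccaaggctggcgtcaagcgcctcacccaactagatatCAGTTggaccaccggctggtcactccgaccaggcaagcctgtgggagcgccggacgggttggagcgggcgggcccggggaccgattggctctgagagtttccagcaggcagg
Tbpl1: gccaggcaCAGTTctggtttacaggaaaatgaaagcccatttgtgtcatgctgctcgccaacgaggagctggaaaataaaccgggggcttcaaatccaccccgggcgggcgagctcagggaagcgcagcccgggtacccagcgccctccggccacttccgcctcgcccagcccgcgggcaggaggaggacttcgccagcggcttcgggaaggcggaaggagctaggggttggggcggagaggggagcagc
The match lies 73 bases before the start in Piwil1, 112 in Hspa2 and 242 in Tbpl1, and these letters are not in the Pou5f2 window. MYB motifs without AACTG were not searched, so the Pou5f2 window may still hold another form. The longer form AACTGNC, which contains the shorter one, was in the Piwil1 window and not in the other 3. Across 27025 genes with windows of the same length, 42.6% held AACTG and 12.1% held AACTGNC in any of their windows, so a match is a common property. Mybl1 itself had 51.9 CPM (UMI of a gene per 1000000 UMI of the pooled cells) in the pachytene to diplotene cells, against 38.4 CPM in leptotene to zygotene cells, 38.4 CPM in cells near the divisions and 6.14 CPM in round spermatids.

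Those 3 comparison groups were cut from the same matrix by mirrored rules, in which another of the sums was the largest: 302 leptotene to zygotene cells, 1552 cells near the meiotic divisions and 5247 round spermatids. Gates of 535 spermatogonia, 283 Leydig cells and 272 macrophages served as further points of comparison, and no barcode was shared between them and the pachytene to diplotene cells. The spermatogonia gate shared 142 barcodes with the leptotene to zygotene gate. Suffixes 1 to 4 held 125, 92, 99 and 92 of the pachytene to diplotene cells, or 1.63%, 1.32%, 1.34% and 1.16% of the kept barcodes of each. No barcode sequence occurred more than once among the 408 cells, and 12 of them had a sequence that also occurred in another suffix.

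The pachytene to diplotene cells were RNA-rich. Their median was 24722.5 UMI and 4927.5 genes per cell, against medians of 4534 UMI in leptotene to zygotene cells, 5235 UMI near the divisions and 3063 UMI in round spermatids. The range was wide, from 975 to 90162 UMI, with 87 cells under 5000 UMI and 233 over 20000. Depth therefore differs between the gates in every comparison that follows. Its part in the results was not tested beyond the values at 5000 to 20000 UMI given beside them. Within that range the pachytene to diplotene cells were still the deeper ones, so depth was narrowed and not matched.

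Droplets also hold free RNA from other cells. Tnp1, Tnp2, Prm1 and Prm2, the RNAs of elongating spermatids, made up 2121 CPM of the pachytene to diplotene cells, against 5692 CPM in leptotene to zygotene cells and 6986 CPM in Leydig cells, which do not make them. Per cell these were 54.1 UMI, against 30.9 UMI and 54.7 UMI. Markers of other cell types were low in the pachytene to diplotene cells: 7 Leydig markers summed to 1.35 CPM, with Hsd3b1 and Lhcgr at 0, and 7 macrophage markers to 1.44 CPM, with C1qc, Csf1r and Adgre1 at 0. The 10 Sertoli markers summed to 38.4 CPM, 25.1 to 54.6 CPM over the suffixes, with Sox9 and Gata4 at 0. Of 12 spermatogonial markers, which summed to 26.1 CPM against 1978 CPM in leptotene to zygotene cells, Sohlh1, Stra8 and Rhox13 were at 0.

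Hspa2, which the rule did not use, was higher in these cells when pooled than in each of the other gates. It had 1613, 1546, 1672 and 1544 CPM in suffixes 1 to 4 of the pachytene to diplotene cells, against 306, 351, 519 and 339 CPM in leptotene to zygotene cells. The libraries were close to each other in the pachytene to diplotene cells and did not overlap with those of the earlier cells. Pooled, Hspa2 had 1595 CPM, against 388 CPM in leptotene to zygotene cells (log2 ratio 2.04, 95% counting interval 1.92 to 2.16), 1301 CPM near the divisions and 794 CPM in round spermatids.

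Tbpl1, also outside the rule, was not highest here. It had 579, 713, 678 and 605 CPM in suffixes 1 to 4 of the pachytene to diplotene cells, against 1247, 1372, 1382 and 1293 CPM in the cells near the divisions. Every suffix was lower in the pachytene to diplotene cells, and the pooled log2 ratio was -1.06 (-1.10 to -1.02). Against leptotene to zygotene cells, with 230 CPM, the ratio was 1.48, and round spermatids had 664 CPM, a ratio of -0.05 that became 0.12 as a mean over cells and 0.09 relative to the median gene.

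Piwil1 had 609 CPM in the pachytene to diplotene cells, against 29.2 CPM in leptotene to zygotene cells, 123 CPM near the divisions and 12.96 CPM in round spermatids. Pou5f2 had 104 CPM, against 7.92, 155 and 4.77 CPM in the same order of groups. The log2 ratio of Pou5f2 over the cells near the divisions was -0.57, but 0.97 as a mean over cells, 0.44 with all gates at 5000 to 20000 UMI and 0.74 without the 5% of barcodes with the most UMI. Of the 408 cells, 209 had no Pou5f2 UMI, whereas 8 had no Piwil1 UMI. All 4 markers were found in 189 cells, 1 lacked Hspa2 and 17 lacked Tbpl1. Of the markers outside the rule, Hspa2 was called higher than in leptotene to zygotene cells and differed by less than 2-fold from the cells near the divisions (log2 ratio 0.29), and Tbpl1 was lower than near the divisions.

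Thinned to 1000 UMI per cell, which left out 1 shallower cell, 79.9% of the pachytene to diplotene cells had an Hspa2 UMI, against 29.8% of leptotene to zygotene cells, 70.6% of cells near the divisions, 52.1% of round spermatids and 8.48% of Leydig cells. Unthinned, the shares were 99.8% of pachytene to diplotene cells, 64.6%, 94.5%, 83.4% and 38.2%, at median depths of 24722.5, 4534, 5235, 3063 and 7714 UMI. For Piwil1 the thinned share was 46.7%, against 2.98% of leptotene to zygotene cells, 10.98% of cells near the divisions, 2.12% of round spermatids and 0.353% of Leydig cells.

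**Figure D1:**
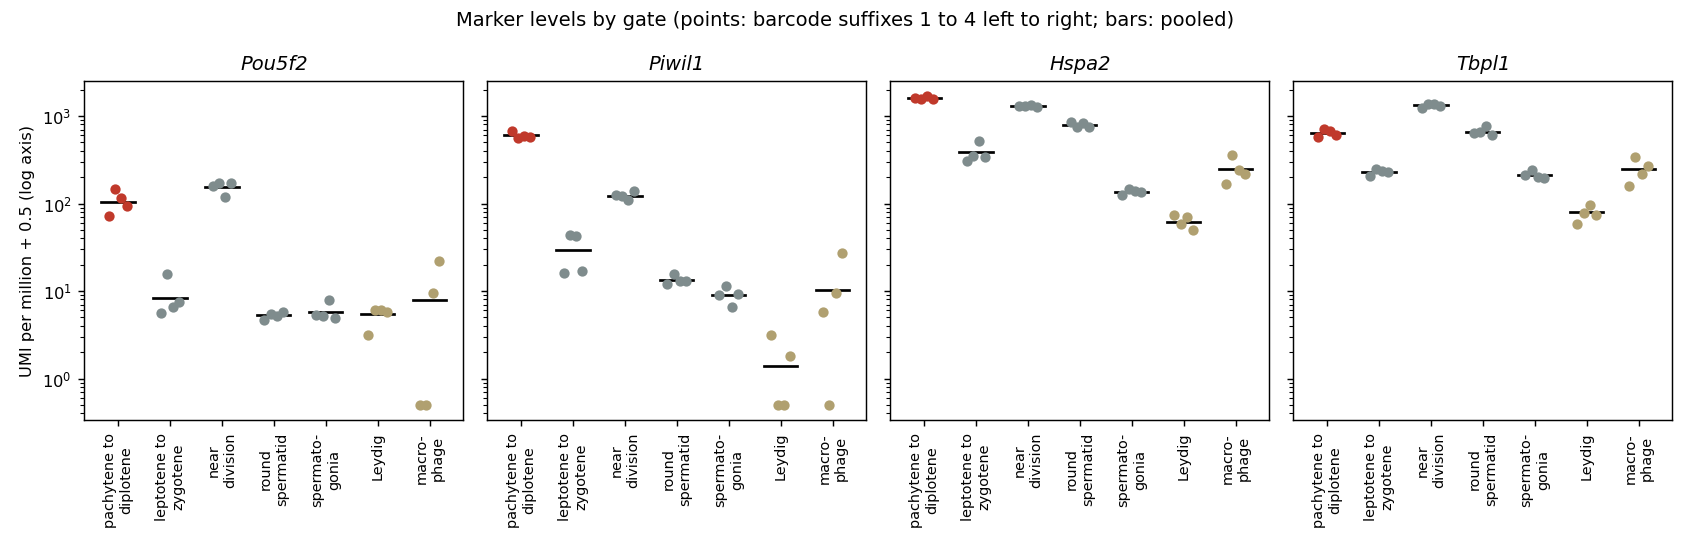
Levels of the 4 naming genes in CPM (log axis, 0.5 added) in the 7 gates, with a point for each barcode suffix and a bar for the pooled cells. Piwil1 and Hspa2 are highest in the pachytene to diplotene gate at 609 and 1595 CPM. Pooled Pou5f2 and Tbpl1 are higher near the divisions at 155 and 1331 CPM. With all gates at 5000 to 20000 UMI the Pou5f2 log2 ratio over the cells near the divisions is 0.44. Depth is narrowed and not matched in that range, and Pou5f2 is a gene of the rule.

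The 52 cells that had exactly 3 UMI of Pou5f2 plus Piwil1 had a median of 2574 UMI, 0.440% X-linked UMI and 2291 CPM of Hspa2. The 82 barcodes just outside at 2 UMI had 1812.5 UMI, 0.437% and 2052 CPM. Both Hspa2 levels were above the 1595 CPM of all 408 cells. Within the gate Hspa2 fell with depth, from 2493 CPM in the 87 cells under 5000 UMI to 1460 CPM from 40000 UMI. The 45 cells whose sum led the division sum by 1 UMI had 1601 CPM of Hspa2 and 0.129% X-linked UMI, and the 23 barcodes with equal sums had 1292 CPM and 0.0768%. Of the 884 kept barcodes with at least 3 UMI of the pair, 450 had a division sum as large or larger.

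X-linked RNA was scarce. X-linked genes gave 0.0556%, 0.0584%, 0.0590% and 0.0538% of UMI in suffixes 1 to 4 of the pachytene to diplotene cells, against 1.83%, 1.78%, 1.63% and 1.94% in leptotene to zygotene cells. All 4 libraries of the pachytene to diplotene cells lay far below all 4 of the earlier cells. Pooled, the share was 0.0567% (exact 95% interval 0.0552 to 0.0581%), against 1.79% in leptotene to zygotene cells, 0.205% near the divisions, 1.24% in round spermatids, 1.94% in spermatogonia and 2.61% in Leydig cells. The autosomes moved little: their log2 ratios over leptotene to zygotene cells ran from -0.20 to 0.36.

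Cell by cell, 330 of the 408 pachytene to diplotene cells had under 0.2% X-linked UMI, against 6 of 302 leptotene to zygotene cells, 487 of 1552 near the divisions and 6 of 5247 round spermatids. Of the 87 cells under 5000 UMI, 67 had at least 0.2%, and these 87 cells had a pooled X-linked share of 0.387%, a median mitochondrial share of 0.255% and a transition protein and protamine share of 1.11%. At 5000 to 20000 UMI the X-linked share was 0.113%, at 20000 to 40000 UMI it was 0.0486%, and from 40000 UMI it was 0.0357%. Round spermatids had a median mitochondrial share of 0.185%, near that of the shallowest cells, while all pachytene to diplotene cells together had 1.53%. With every gate limited to 5000 to 20000 UMI the X-linked share was 0.113% in 88 pachytene to diplotene cells, against 1.65% in leptotene to zygotene cells, 0.429% near the divisions and 1.18% in round spermatids. So these 4 gates kept their order within that range. Depth was not equal in it, with medians of 11729 UMI in the pachytene to diplotene cells and 7628.5, 8279.5 and 7109.5 UMI in the other groups.

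**Figure D2:**
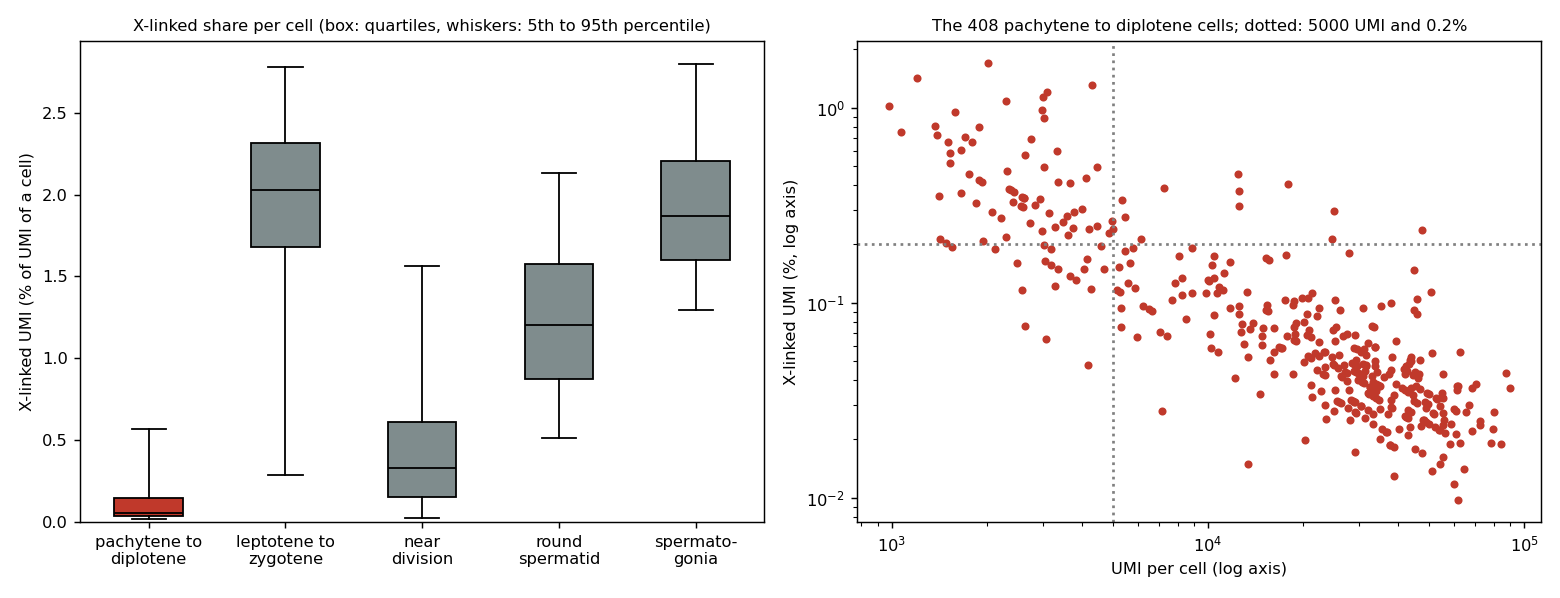
Left, X-linked UMI per cell as a percentage of the cell's UMI in 5 gates, as boxes of the quartiles with whiskers from the 5th to the 95th percentile; right, the same share against UMI per cell for the 408 pachytene to diplotene cells, both axes logarithmic. Most cells over 5000 UMI lie under 0.2%, and 67 of the 87 shallower cells lie at or over it.

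For single genes, the call of higher or lower asked for a 2-fold or larger pooled difference whose direction was shared by all 4 suffixes, and for 50 or more UMI over both groups; the genes of the rule were left out. Over the leptotene to zygotene cells 21.7% of 9415 genes were called higher and 36.4% lower. Over the cells near the divisions 14.9% of 11255 were higher and 22.4% lower, and over round spermatids 31.7% of 13115 were higher and 39.3% lower. The median gene had a log2 ratio of -0.45 over leptotene to zygotene cells, -0.09 over the cells near the divisions and -0.14 over round spermatids. With ratios taken relative to that median, the shares became 28.9% higher and 27% lower, 17.2% and 20.7%, and 34% and 37.9%. Since the gates are themselves cut from RNA levels, genes expressed together with the marker genes had to differ, and these counts carry no test. The counts of the gene lists below are to be read beside these shares, and several lie near them. At 5000 to 20000 UMI fewer genes were called over all genes too. Over leptotene to zygotene cells 1127 were higher and 1519 lower, over the cells near the divisions 891 and 1811, and over round spermatids 2247 and 3614. No share over all genes is given for that depth, so list counts there cannot be set beside one.

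Of 179 X-linked genes 173 were lower than in leptotene to zygotene cells and none was higher, where 35.2% of the autosomal genes were lower. Of 221, 190 were lower than near the divisions, and of 386, 381 were lower than in round spermatids, where 21.1% and 37.2% of the autosomal genes were lower. All 14 measured X-linked housekeeping genes were lower than in leptotene to zygotene cells (median log2 ratio -7.17), as were 10 of 10 at 5000 to 20000 UMI (median -5.62).

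Hprt, a purine salvage enzyme, had 0, 0, 0.423 and 0 CPM in suffixes 1 to 4 of the pachytene to diplotene cells, against 165, 186, 154 and 223 CPM in leptotene to zygotene cells. This was 1 UMI against 297 UMI, a log2 ratio of -10.88 with a counting interval of -16.19 to -8.39. Rpl36a, a ribosomal protein gene, gave 2 UMI against 518 (-10.68, -13.73 to -8.82), and Atrx, a chromatin remodeller, 2 UMI against 99 (-8.29, -11.36 to -6.40). Also among the 10 lowest listed genes were Rbbp7, a histone-binding chaperone (-7.75), and the ribosomal protein gene Rpl10 (-7.42).

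X-linked genes of the germ line were low as well. Taf7l, a germ cell TFIID subunit, had 1.06 CPM in the pachytene to diplotene cells, against 550 CPM in leptotene to zygotene cells (log2 ratio -9.02). Usp26, a testis deubiquitinase, gave 1 UMI against 106 (-9.39, -14.71 to -6.88), and Tktl1, a transketolase-like gene, 1 UMI against 128 (-9.66, -14.98 to -7.16). Tex11, which acts in crossover formation, had 0 UMI against 150. With a floor of 3 UMI over the gate the log2 ratio was -8.31, and the upper counting limit was -7.99. Over round spermatids all 12 measured X-linked spermatid genes were lower, among them Fthl17a, a ferritin-like gene (-6.04), and 1700013H16Rik (-5.91). Uba1, the ubiquitin-activating enzyme, had 0.384 CPM against 31.4 CPM there (-6.35), and Ube2a, a ubiquitin-conjugating enzyme, 2.31 CPM against 138 CPM (-5.91). Phf6, a chromatin protein, had 1.44 CPM, against 22.8 CPM near the divisions (-3.98). Members of the Slx and Ssxb families are near-identical copies, and how reads were shared between them is uncertain; Ssxb1, Ssxb2 and Ssxb3 had 1.15, 0.865 and 0.384 CPM in the pachytene to diplotene cells, against 18.8, 15.8 and 7.42 CPM near the divisions.

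Ndufa1, a subunit of respiratory complex I, was the exception among the X-linked housekeeping genes. It had 25.1 CPM in the pachytene to diplotene cells, against 228 CPM in leptotene to zygotene cells, 8.54 CPM near the divisions and 4.82 CPM in round spermatids. It was lower than in the earlier cells (log2 ratio -3.19) and higher than in both later groups (1.55 and 2.38). The leading X-linked RNA was the predicted gene Gm14698, with 900 of the 5894 X-linked UMI, or 15.3%; it had 86.5 CPM in the pachytene to diplotene cells, against 142 CPM in leptotene to zygotene cells, 98.6 CPM near the divisions and 28.8 CPM in round spermatids. These were the only X-linked genes called higher in any of the 3 comparisons.

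Autosomal counterparts of X-linked genes did not share this loss. Pdha2, the testis form of a pyruvate dehydrogenase subunit, had 339 CPM in the pachytene to diplotene cells, against 82.2 CPM in leptotene to zygotene cells (log2 ratio 2.04), while X-linked Pdha1 gave 0.0961 and 15.2 CPM. Rpl10l had 98.9 CPM, against 28.6 CPM (1.79), and Cetn1, a centrin, 1870 CPM, against 202 CPM (3.21). Of 13 genes on this list 4 were higher and 4 lower than in leptotene to zygotene cells. The 4 lower ones were Utp14b, and Eif2s3y, Zfy2 and Taf9b, which are on the Y or X chromosome themselves. Pgk2, the testis phosphoglycerate kinase, had 78.1 CPM, against 99.3 CPM in leptotene to zygotene cells, and against 597 CPM in round spermatids (-2.94).

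Of 15 genes whose products act on the silenced sex chromosomes 8 were lower than in leptotene to zygotene cells and none higher, which became 3 of 12 at 5000 to 20000 UMI. Over the cells near the divisions 7 of 14 were higher and 2 lower, and over round spermatids 10 of 15 were higher and 2 lower. H2afx, whose protein is phosphorylated on the silent X, had 232 CPM in the pachytene to diplotene cells, against 230 CPM in leptotene to zygotene cells, 108 CPM near the divisions and 24.0 CPM in round spermatids. Topbp1, which activates the kinase ATR, had 37.2 CPM, against 111, 8.99 and 1.41 CPM, and Mdc1, which helps to spread that signal, 35.9 CPM, against 47.5, 16.5 and 3.44 CPM.

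Rnf8, a ubiquitin ligase of the sex body, had 33.8, 35.2, 34.7 and 31.5 CPM in suffixes 1 to 4 of the pachytene to diplotene cells, against 5.57, 5.70, 8.39 and 9.70 CPM near the divisions. The libraries of the pachytene to diplotene cells varied by 1.12 times and did not overlap with those near the divisions. The log2 ratio was 2.18 (1.92 to 2.45) over the cells near the divisions, 3.86 over round spermatids, and -0.33 (-0.71 to 0.06) over leptotene to zygotene cells, with 42.6 CPM, which was not called and was 0.12 relative to the median gene and 0.01 at 5000 to 20000 UMI.

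With all depths pooled, most synaptonemal complex RNAs were below the level of the earlier cells and above that of the later cells. Of 10 such genes 6 were lower and 1 higher than in leptotene to zygotene cells, and 7 were higher and none lower than near the divisions. Sycp1, the transverse filament, had 827, 612, 706 and 690 CPM in suffixes 1 to 4 of the pachytene to diplotene cells, against 185, 129, 158 and 153 CPM near the divisions. Every suffix was higher in the pachytene to diplotene cells, with a pooled log2 ratio of 2.22 (2.17 to 2.28), and leptotene to zygotene cells had 1622 CPM (-1.18). Sycp3, a lateral element protein, had 704 CPM, against 1595, 299 and 47.1 CPM in leptotene to zygotene cells, near the divisions and in round spermatids. Syce1, of the central element, was the member higher than in leptotene to zygotene cells, with 800 CPM against 304 CPM, and it had 813 CPM near the divisions. At 5000 to 20000 UMI 2 of the 10 genes were lower than in leptotene to zygotene cells, 1 was higher and 7 were neither. Over all genes the calls of lower also fell, from 3429 to 1519. The median log2 ratio of the list in that comparison, -1.18 over all cells, became 0.22. Relative to the median of all genes it went from -0.73 to 0.43. Over the cells near the divisions 8 of 10 were higher at that depth.

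Most RNAs for making and pairing DNA breaks were lower than in the earlier cells. Of 11 genes of break formation and strand exchange 8 were lower and 1 higher than in leptotene to zygotene cells, and 6 of 10 were lower at 5000 to 20000 UMI. Dmc1, the meiotic recombinase, had 1.73 CPM, against 179 CPM in leptotene to zygotene cells (log2 ratio -6.69). Psmc3ip, which helps strand invasion, was the higher one, with 717 CPM against 232 CPM. Stra8, the gene of meiotic entry that gives the Cre driver its name, had 0 UMI in the pachytene to diplotene cells against 884 UMI. With a floor of 3 UMI over the gate the log2 ratio was -10.87, and the upper counting limit was -10.57.

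Of 11 crossover genes 4 were lower and none higher than in leptotene to zygotene cells, with a median log2 ratio of -0.15. Relative to the median gene the counts were 4 higher and 3 lower and the median 0.30, and at 5000 to 20000 UMI they were 1 higher and 1 lower of 8, with a median of 0.51. Over the cells near the divisions 5 were higher and 1 lower, and over round spermatids 7 were higher and 1 lower. Ccnb1ip1, which encodes the crossover ubiquitin ligase HEI10, had 42.6, 28.0, 34.3 and 31.5 CPM in suffixes 1 to 4 of the pachytene to diplotene cells, against 3.22, 2.19, 3.55 and 3.44 CPM near the divisions. The groups did not overlap, and the pooled log2 ratio was 3.49 (3.13 to 3.86), the highest of the listed genes in that comparison. Leptotene to zygotene cells had 38.4 CPM and round spermatids 0.631 CPM. Mlh3, a mismatch repair protein of crossovers, had 27.4 CPM, against 18.3, 16.3 and 0.783 CPM in leptotene to zygotene cells, near the divisions and in round spermatids, and Hfm1, a crossover helicase, 18.4 CPM, against 51.2, 4.69 and 3.59 CPM. Tex12, of the central element (2.20), Ythdc2, an RNA helicase that acts in meiotic prophase (2.28), and Msh4, a crossover factor (1.91), were also among the 10 listed genes highest over the cells near the divisions.

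In the piRNA pathway, Piwil1 aside, 9 of 20 measured genes were higher and 2 lower than in leptotene to zygotene cells, 9 were higher and 1 lower than near the divisions, and 14 were higher and 1 lower than in round spermatids. At 5000 to 20000 UMI the counts were 9 higher and 1 lower of 17, 11 higher and 1 lower of 19, and 11 higher and 2 lower of 18. The median log2 ratios of the list, relative to the median of all genes at that depth, were 1.53, 1.26 and 1.95. Tdrd5, a Tudor-domain protein of piRNA granules, had 140, 138, 163 and 122 CPM in suffixes 1 to 4 of the pachytene to diplotene cells, against 28.3, 27.3, 34.1 and 30.8 CPM near the divisions and 1.60, 3.32, 2.86 and 1.90 CPM in round spermatids. All 4 suffixes were far above both later groups, with log2 ratios of 2.21 and 5.86, and leptotene to zygotene cells had 43.2 CPM.

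The members of the pathway did not all peak together. Pld6, which encodes the mitochondrial nuclease of primary piRNA formation, had 220 CPM, against 25.6 CPM in leptotene to zygotene cells, 102 CPM near the divisions and 18.7 CPM in round spermatids. Mael had 2412 CPM, against 810, 1918 and 1213 CPM in the same groups. Fkbp6, with 162 CPM against 526 CPM, and Mov10l1, an RNA helicase that hands on piRNA precursors, with 81.7 CPM against 221 CPM, were the 2 genes lower than in leptotene to zygotene cells. Tdrd7, with 48.8 CPM, was lower than near the divisions, where it had 119 CPM, and than in round spermatids, where it had 195 CPM. Of 18 genes of the pathway with a promoter in the RefSeq table, Piwil1 included, 7 held AACTG and 4 held AACTGNC. These were 38.9% and 22.2%, beside 42.6% and 12.1% of all genes with a promoter there.

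Of 16 transcription genes 8 were higher and 4 lower than in leptotene to zygotene cells. Over the cells near the divisions 1 of 17 was higher and 5 lower, and over round spermatids 5 were higher and 7 lower. The shares over all genes in these comparisons were 21.7% and 36.4%, 14.9% and 22.4%, and 31.7% and 39.3%. Rfx2, a regulator of cilium and flagellum genes, had 116 CPM, against 15.2 CPM in leptotene to zygotene cells (log2 ratio 2.93). Of 15 RNA-binding genes 7 were higher and 5 lower than in leptotene to zygotene cells, 3 higher and 2 lower than near the divisions, and 7 higher and 3 lower of 14 than in round spermatids. Ybx2, which encodes the mRNA storage protein MSY2, had 2445, 2451, 2409 and 2399 CPM in suffixes 1 to 4 of the pachytene to diplotene cells, against 144, 159, 200 and 179 CPM in leptotene to zygotene cells. The libraries of the pachytene to diplotene cells were nearly equal, and the log2 ratio was 3.81 (3.64 to 3.98). Dazl, a translation regulator of early germ cells, was lower, with 139 CPM against 1687 CPM (-3.60).

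Most energy enzymes of the testis were higher than in the earlier cells. Ldhc, the testis lactate dehydrogenase subunit, had 9012, 10700.3, 9779 and 10317 CPM in suffixes 1 to 4 of the pachytene to diplotene cells, against 916, 1084, 1083 and 1138 CPM in leptotene to zygotene cells. The groups lay far apart, with a log2 ratio of 3.22 (3.16 to 3.29), and the cells near the divisions had 9912 CPM. Ldha, the somatic subunit gene, had 1760 CPM, against 115 CPM (3.94), the highest ratio of all listed genes there, and Cox8c, a subunit of cytochrome oxidase in testis, 2859 CPM, against 277 CPM (3.37). Cyct, the testis cytochrome c, had 651 CPM against 116 CPM, while the somatic Cycs had 9.42 CPM against 186 CPM (-4.31). Of 18 genes 10 were higher and 6 lower than in leptotene to zygotene cells, and 9 were higher and 1 lower of 16 at 5000 to 20000 UMI. Over the cells near the divisions 1 of 19 was higher and 4 lower, and over round spermatids 5 were higher and 8 lower.

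Of the flagellum and cilium genes 17 of 25 were higher and 5 lower than in leptotene to zygotene cells (median log2 ratio 1.70, beside -0.45 over all genes). Spag16, a central pair protein, had 200 CPM, against 15.2 CPM (3.71), Dnah8, an outer arm dynein heavy chain, 297 CPM, against 26.2 CPM (3.50), and Rsph1, a radial spoke protein, 4645 CPM, against 613 CPM (2.92). The 5 lower genes were Odf1, Spag6, Akap3, Cabyr and Fscb, with log2 ratios of -1.81, -2.23, -1.90, -1.83 and -1.18. They had 5.38 to 18.2 CPM in the pachytene to diplotene cells and 127 to 751 CPM in round spermatids. Tnp1, Tnp2, Prm1 and Prm2 had log2 ratios of -1.33, -1.53, -1.30 and -1.47 in the same comparison, and their part in the result was not tested. At 5000 to 20000 UMI none of 20 measured flagellum genes was lower and 15 were higher. Over the cells near the divisions 1 was higher and 7 lower, with Tekt4, a tektin, at 43.5 CPM against 398 CPM (-3.19). Over round spermatids 5 were higher and 12 lower, with Spag6 at 8.17 CPM against 568 CPM (-6.12).

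Of 15 measured acrosome genes 8 were higher and 4 lower than in leptotene to zygotene cells, and 9 of 13 were higher and 1 lower at 5000 to 20000 UMI. Acr, the acrosomal protease acrosin, had 123, 120, 118 and 126 CPM in suffixes 1 to 4 of the pachytene to diplotene cells, against 5.15, 18.3, 18.2 and 9.29 CPM in leptotene to zygotene cells. Every suffix was higher, with a log2 ratio of 3.25 (2.63 to 3.94). Dpy19l2, needed to attach the acrosome to the nucleus, had 76.2 CPM, against 6.09 CPM (3.65), and Spata16, a Golgi protein of acrosome formation, 274 CPM, against 23.8 CPM (3.53).

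Other acrosome genes had little RNA in these cells. Zp3r, a zona pellucida binding protein, had 3.56 CPM in the pachytene to diplotene cells, against 482 CPM in round spermatids (-7.08), Izumo1, the sperm-egg fusion protein, 3.65 CPM, against 279 CPM (-6.26), and Spaca7 10.9 CPM, against 642 CPM (-5.89). Pdilt, an endoplasmic reticulum chaperone of spermatids, was lowest of the listed genes there, with 2.21 CPM against 475 CPM (-7.75). No acrosome gene was higher than near the divisions and 12 of 16 were lower, among them Zpbp2, a zona pellucida binding protein, with 377 CPM against 1009 CPM (-1.42).

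Most called regulators of the divisions were lower than near the divisions. Plk1, the Polo-like kinase of division entry, had 11.3, 14.0, 13.5 and 14.9 CPM in suffixes 1 to 4 of the pachytene to diplotene cells, against 238, 227, 264 and 199 CPM near the divisions. The groups did not overlap, with a log2 ratio of -4.13 (-4.38 to -3.89). Ccnb1, which encodes cyclin B1, had 21.5 CPM, against 250 CPM (-3.54), and 8 of 18 measured regulators were lower and 3 higher. The higher ones were Cdk2, a kinase of meiotic prophase, with 66.7 CPM against 28.2 CPM, Mad2l1, of the spindle checkpoint, with 28.0 CPM against 8.58 CPM, and Cks2, a partner of the cyclin-dependent kinases, with 1267 CPM against 383 CPM. Over round spermatids Cks2 (log2 ratio 5.25), Cdk2 (4.31), Mad2l1 (4.16) and Fbxo43, an inhibitor of the anaphase-promoting complex (4.55), were among the 10 highest listed genes.

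**Figure D3:**
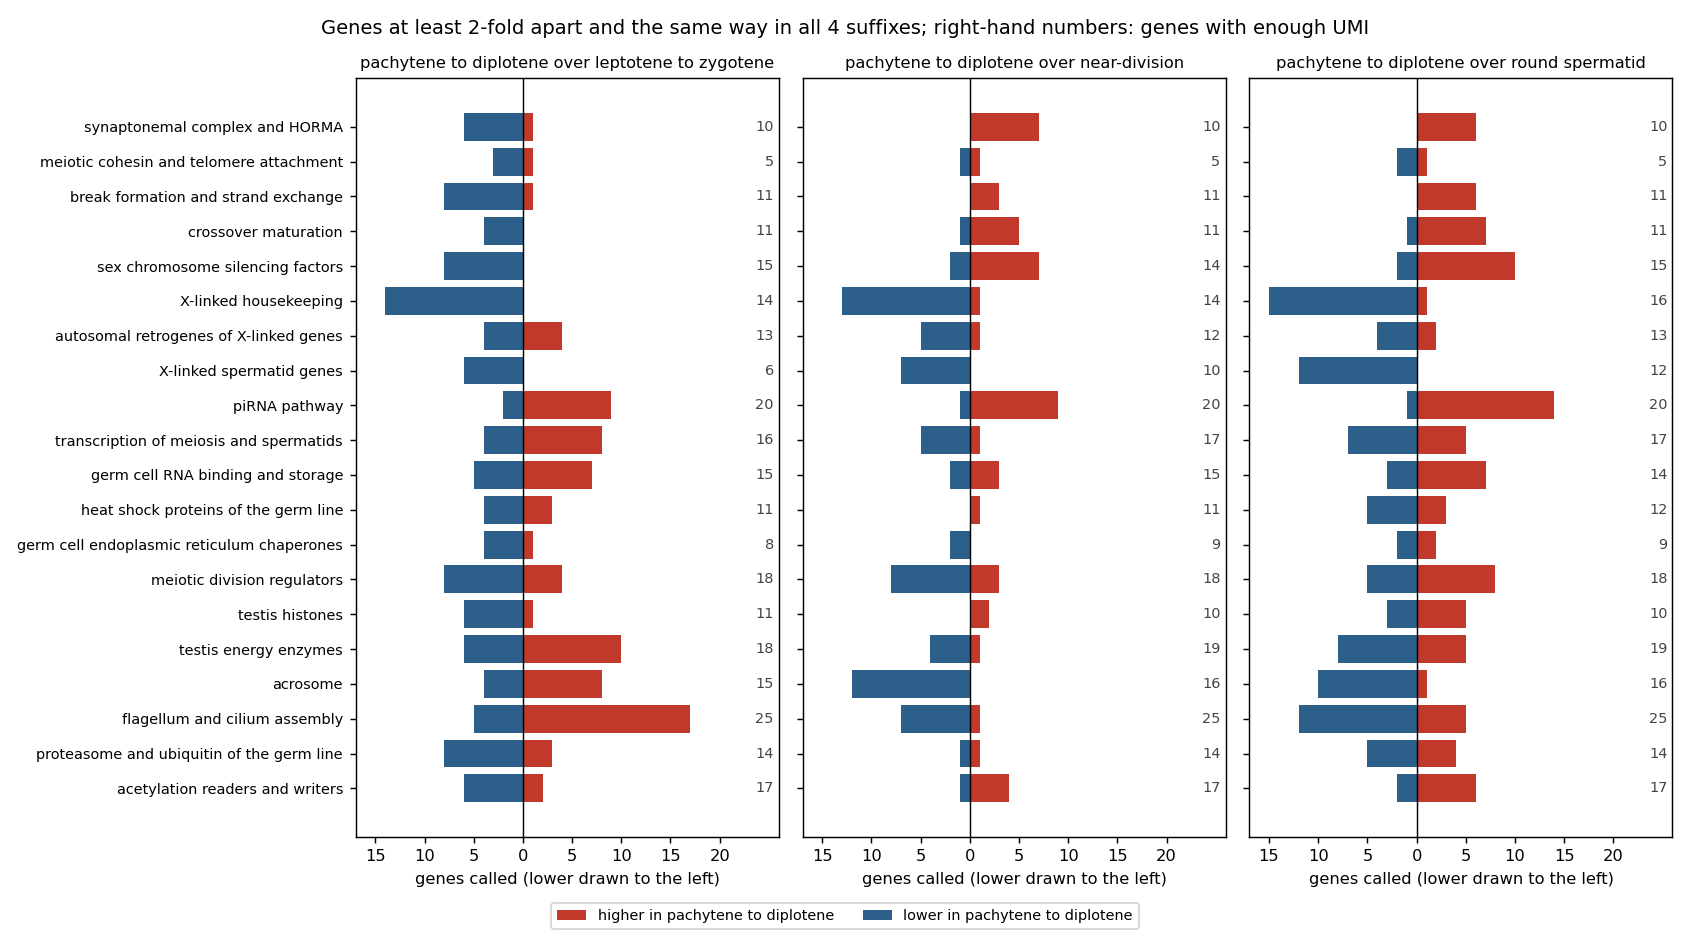
Number of genes of each list called higher (drawn to the right) or lower (drawn to the left) in pachytene to diplotene cells in the 3 comparisons, with the number of measured genes at the right of each panel. Flagellum genes were 17 higher and 5 lower of 25 over leptotene to zygotene cells, and acrosome genes 0 higher and 12 lower of 16 over the cells near the divisions.

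Other lists gave smaller or mixed counts. Of 14 proteasome and ubiquitin genes 3 were higher and 8 lower than in leptotene to zygotene cells; the higher ones were Phf7, Ubb, a polyubiquitin gene, and Psma8, a germ cell subunit of the proteasome core that had 503 CPM, against 132 CPM in leptotene to zygotene cells, 148 CPM near the divisions and 23.3 CPM in round spermatids. The linker histone gene Hist1h1t, which encodes the testis form of histone H1, had 8.65 CPM, against 3.05, 3.01 and 3.91 CPM. Only polyadenylated RNA was counted, so any Hist1h1t RNA without a poly(A) tail is missing from these values. H3f3b, which encodes histone H3.3, had 3621 CPM, against 4665, 910 and 2000 CPM. Of 17 acetylation genes 2 were higher and 6 lower than in leptotene to zygotene cells, 4 higher and 1 lower than near the divisions, and 6 higher and 2 lower than in round spermatids. The shares over all genes in these comparisons were 21.7% and 36.4%, 14.9% and 22.4%, and 31.7% and 39.3%.

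Counts for the remaining lists are given without further values. Of all genes 21.7% were higher and 36.4% lower than in leptotene to zygotene cells, and 31.7% and 39.3% than in round spermatids. Over leptotene to zygotene cells, higher and lower genes numbered 3 and 4 of 11 for heat shock proteins, 1 and 4 of 8 for endoplasmic reticulum chaperones, 1 and 6 of 11 for testis histones, 1 and 3 of 5 for cohesin and telomere attachment, and 0 and 3 of 4 for DNA damage and cell death. At 5000 to 20000 UMI these became 3 and 2 of 10, 1 and 1 of 7, 0 and 2 of 9, 2 and 0 of 4, and 0 and 2 of 4, and the median log2 ratio of the cohesin list, -1.09 over all cells, became 0.46. Dissociation stress genes, which mark the enzymatic release of cells, were 1 higher and 8 lower of 9 over round spermatids, and 0 higher and 1 lower of 2 over leptotene to zygotene cells, with Fos at 0.577 CPM in the pachytene to diplotene cells against 5.99 CPM in round spermatids.

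The gene targeted in the study, Phf7, which encodes a PHD finger protein, had 236, 1073, 1391 and 330 CPM in suffixes 1 to 4 of the pachytene to diplotene cells, against 72.1, 165, 234 and 88.2 CPM in leptotene to zygotene cells. Suffixes 2 and 3 were high and suffixes 1 and 4 low, in the pachytene to diplotene cells as in the other germ cell gates. The pooled level was 721 CPM, against 144 CPM in leptotene to zygotene cells (log2 ratio 2.33, 2.14 to 2.52), 591 CPM near the divisions (0.29) and 357 CPM in round spermatids (1.01, 0.97 to 1.06). The call over round spermatids was lost without suffix 2 (0.87), without suffix 4 (0.93) and at 5000 to 20000 UMI (0.72). Which exon of Phf7 the deletion removes is not given in the labels, so these 3' counts do not show an intact transcript.

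Phf7 had the widest spread over the suffixes among 2849 genes with at least 200 UMI in the pachytene to diplotene cells of a suffix, with the highest at 5.90 times the lowest; the median gene varied by 1.16 times. Next came Dynlt1a, a dynein light chain gene, with 49.5, 273, 258 and 267 CPM in suffixes 1 to 4, and Rsph3a, a radial spoke gene, with 16.9, 93.2, 77.9 and 68.5 CPM. These have near-identical copies elsewhere in the genome, so their counts are uncertain. They were low in suffix 1 alone, as were 1700110I01Rik, with 36.7, 151, 103 and 94.5 CPM, and Eno1, which encodes enolase, with 35.1, 119, 107 and 108 CPM. In all 28 genes varied over 2 times. Brdt, whose protein reads acetylated histones in spermatids, had 218, 242, 216 and 229 CPM and varied by 1.12 times; pooled, it had 226 CPM, against 157 CPM in leptotene to zygotene cells, 168 CPM near the divisions and 144 CPM in round spermatids, differences that were all under 2-fold.

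**Figure D4:**
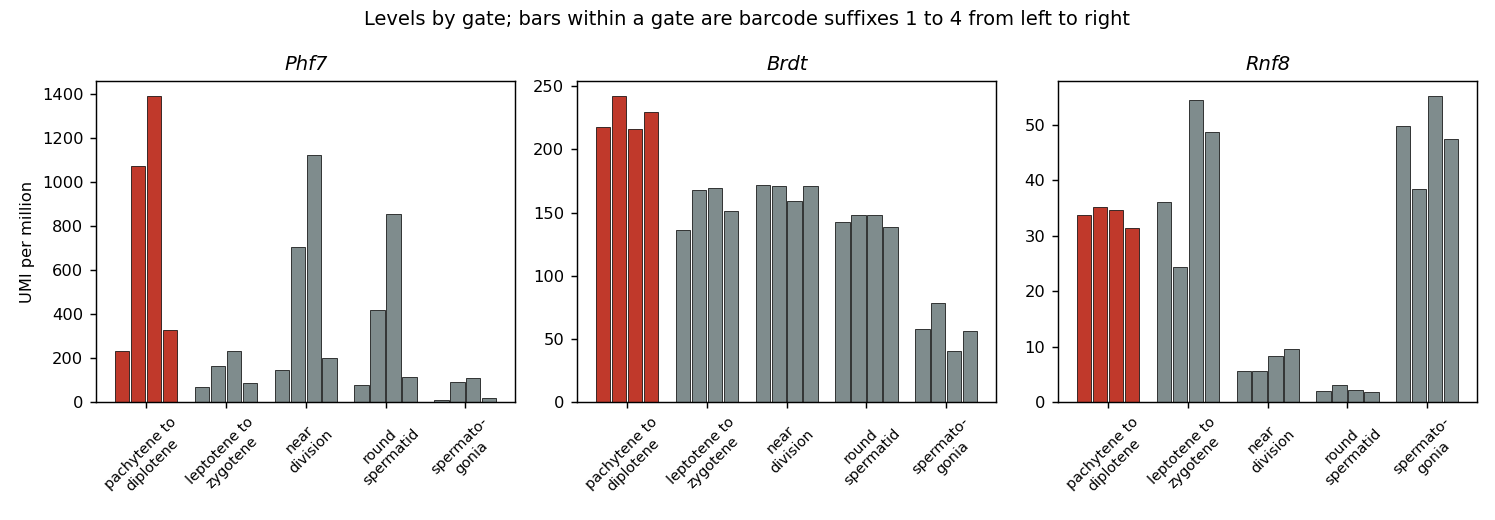
Levels of Phf7, Brdt and Rnf8 in CPM in 5 germ cell gates, with a bar for each barcode suffix from 1 to 4. Phf7 in the pachytene to diplotene gate is 1073 and 1391 CPM in suffixes 2 and 3, and 236 and 330 CPM in suffixes 1 and 4. Brdt and Rnf8 differ little between the suffixes of that gate, while Rnf8 runs from 24.4 to 54.5 CPM in the leptotene to zygotene gate.

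Ranked over all genes by the ratio of their level in the pachytene to diplotene cells to that of the next highest gate, 3434 genes with at least 100 UMI in every suffix could be compared. Of these 878 were highest in the pachytene to diplotene cells and 60 were so by at least 2-fold. The ranking describes the choice of cells and is no test. Piwil1 was the second of the list, Hspa2 ranked 455, Pou5f2 1877 and Tbpl1 2593.

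The leader was Gm9732, a predicted protein-coding gene, with 80.9, 59.6, 66.4 and 67.3 CPM in suffixes 1 to 4 of the pachytene to diplotene cells and 11.6 CPM in the cells near the divisions, the next highest gate (log2 ratio 2.58). All 4 suffixes were far above that gate. After Piwil1 came 3 long noncoding RNAs, RP23-235M8.7 with 255 CPM, 1700040D17Rik with 70.8 CPM and RP24-136L4.4 with 70.9 CPM, each more than 2 log2 units above the next gate. Among them were also Stambp, a deubiquitinase of endosomes, with 153 CPM (2.12), Elfn2, a leucine-rich repeat membrane protein, with 291 CPM (1.93), Ttc30a1, an intraflagellar transport gene, with 61.1 CPM (1.84), and 1700006A11Rik with 115 CPM (1.72). Psma8 (1.77) and Tdrd5 (1.70), described above, were in the list too.

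The other 4 were Fam181a with 269 CPM (1.68), 4930579G24Rik with 198 CPM (1.65), BC049730 with 505 CPM (1.80) and Gm4763 with 227 CPM (1.64). BC049730 and Gm4763 are neighbours on chromosome 7 on opposite strands, at 24709242 to 24714535 and 24715023 to 24726908 (mm10, GENCODE M21). For 8 of the 15 the RefSeq table held a promoter: AACTG was in 4 of them, Piwil1, 1700040D17Rik, Elfn2 and Stambp, and AACTGNC in 2, Piwil1 and 1700040D17Rik.

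The genes whose levels were most like those of Pou5f2 over the 7 gates and 4 suffixes, 28 points that share libraries and free RNA, were Atxn7l3b (Pearson r 0.94 on log2(CPM + 1)), Cdk20 (0.93), 1110065P20Rik (0.91), Kcmf1 (0.90) and Them6 (0.90), of 5341 genes compared. Atxn7l3b had 1547 CPM in the pachytene to diplotene cells, against 242 CPM in leptotene to zygotene cells, 1289 CPM near the divisions and 167 CPM in round spermatids. Cdk20, a cyclin-dependent kinase of cilia, had 99.1 CPM, against 10.96, 156 and 15.3 CPM.

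The 408 cells were also ordered among themselves. The score was the share of early prophase genes (those of the leptotene to zygotene sum and Sycp1, Sycp2, Hormad1, Tex12, Syce2, Dmc1 and Spo11) in the UMI of these and of the division and round spermatid sums. It could be computed for 331 cells with at least 10 such UMI, and 77 cells with a median of 2616 UMI were left out. The scored cells were split by rank into an early, a middle and a late range of 111, 110 and 110 cells, ranges of a score and not cell types, with 203 cells within 0.05 of a boundary. Median depth was 18674, 31337.5 and 44581 UMI and the X-linked share 0.0761%, 0.0459% and 0.0411% from early to late; the part of depth in the order was not tested. Between the early and the late range, 12.3% of 7375 genes were higher in the early and 9.95% in the late one. Genes expressed together with those of the score had to differ between the ranges. The counts and genes given along the order therefore describe the score and carry no test.

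The listed genes with the largest early excess were mostly prophase genes. Dazl had 389, 122 and 44.3 CPM in the early, middle and late range, and each of the 4 suffixes went the same way (log2 ratio of early over late 3.13, 2.91 to 3.36). Mnd1, a strand exchange factor, had 30.4, 8.52 and 2.58 CPM (3.56), Hormad2, of the chromosome axis, 51.8, 22.04 and 6.87 CPM (2.91), Msh4 29.9, 11.8 and 4.94 CPM (2.60) and Ccnb1ip1 75.6, 35.6 and 16.5 CPM (2.19). All 5 were highest in the early range. The other early-high genes were Ndufa1 with 65.6, 21.7 and 10.1 CPM (2.70), Bax, which promotes apoptosis, with 35.6, 18.2 and 6.66 CPM (2.42), and H1f0, a linker histone, with 36.6, 17.0 and 8.16 CPM (2.16).

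The listed genes with the largest late excess were flagellum, acrosome, RNA-binding and division genes. Tekt3, a tektin, had 22.8, 60.8 and 154 CPM from early to late (-2.75, -3.21 to -2.33), and Ccdc40, a dynein assembly gene, 23.3, 47.3 and 74.5 CPM (-1.68). Zpbp2 had 169, 265 and 541 CPM (-1.68) and Zpbp 128, 194 and 325 CPM (-1.35). Aurkc, the germ cell Aurora kinase, had 12.8, 22.6 and 52.2 CPM (-2.02), Pabpc2, a testis poly(A)-binding protein, 278, 461 and 912 CPM (-1.71), Papolb, a testis poly(A) polymerase, 74.6, 108 and 215 CPM (-1.53), and Tdrd6, of the chromatoid body, 38.0, 52.6 and 97.8 CPM (-1.36). Over whole lists, 5 of 14 acrosome and 4 of 22 flagellum genes were at least 2-fold higher in the late range, and 3 of 4 synaptonemal, 4 of 9 crossover and 4 of 11 silencing genes in the early one. Of 14 RNA-binding genes 3 were higher early and 2 late. Over all genes 12.3% were higher early and 9.95% late. Other synaptonemal, division and acrosome genes built the score, so the place of these lists along it was partly set in advance. Not all prophase genes were higher early: Syce1 had 634, 790 and 886 CPM from early to late (-0.48), and Psmc3ip 739, 763 and 686 CPM (0.11). Among flagellum genes Ift88, of intraflagellar transport, had 159, 145 and 89.2 CPM (0.83). These 3 were chosen after their values were seen.

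The naming genes differed in their place along the order. Pou5f2 had 7.60, 21.2 and 192 CPM from early to late (-4.66, -5.47 to -3.95). The rule asks for more UMI of Pou5f2 plus Piwil1 than of the division sum, which is larger in late cells, so the place of this pair along the order is partly set by the choice of cells. Piwil1 had 736, 686 and 482 CPM (0.61) and Hspa2 1931, 1616 and 1396 CPM (0.47), both highest early, while Tbpl1 had 411, 533 and 798 CPM (-0.96). With every cell limited to 5000 to 20000 UMI the ratios of Piwil1 and Hspa2 were -0.06 and -0.06. Phf7 had 660, 706 and 762 CPM, and its suffixes did not go the same way; Brdt had 277, 240 and 195 CPM (0.51) and Rnf8 44.7, 40.8 and 23.8 CPM (0.91, but -0.14 without the 5% of barcodes with the most UMI).

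**Figure D5:**
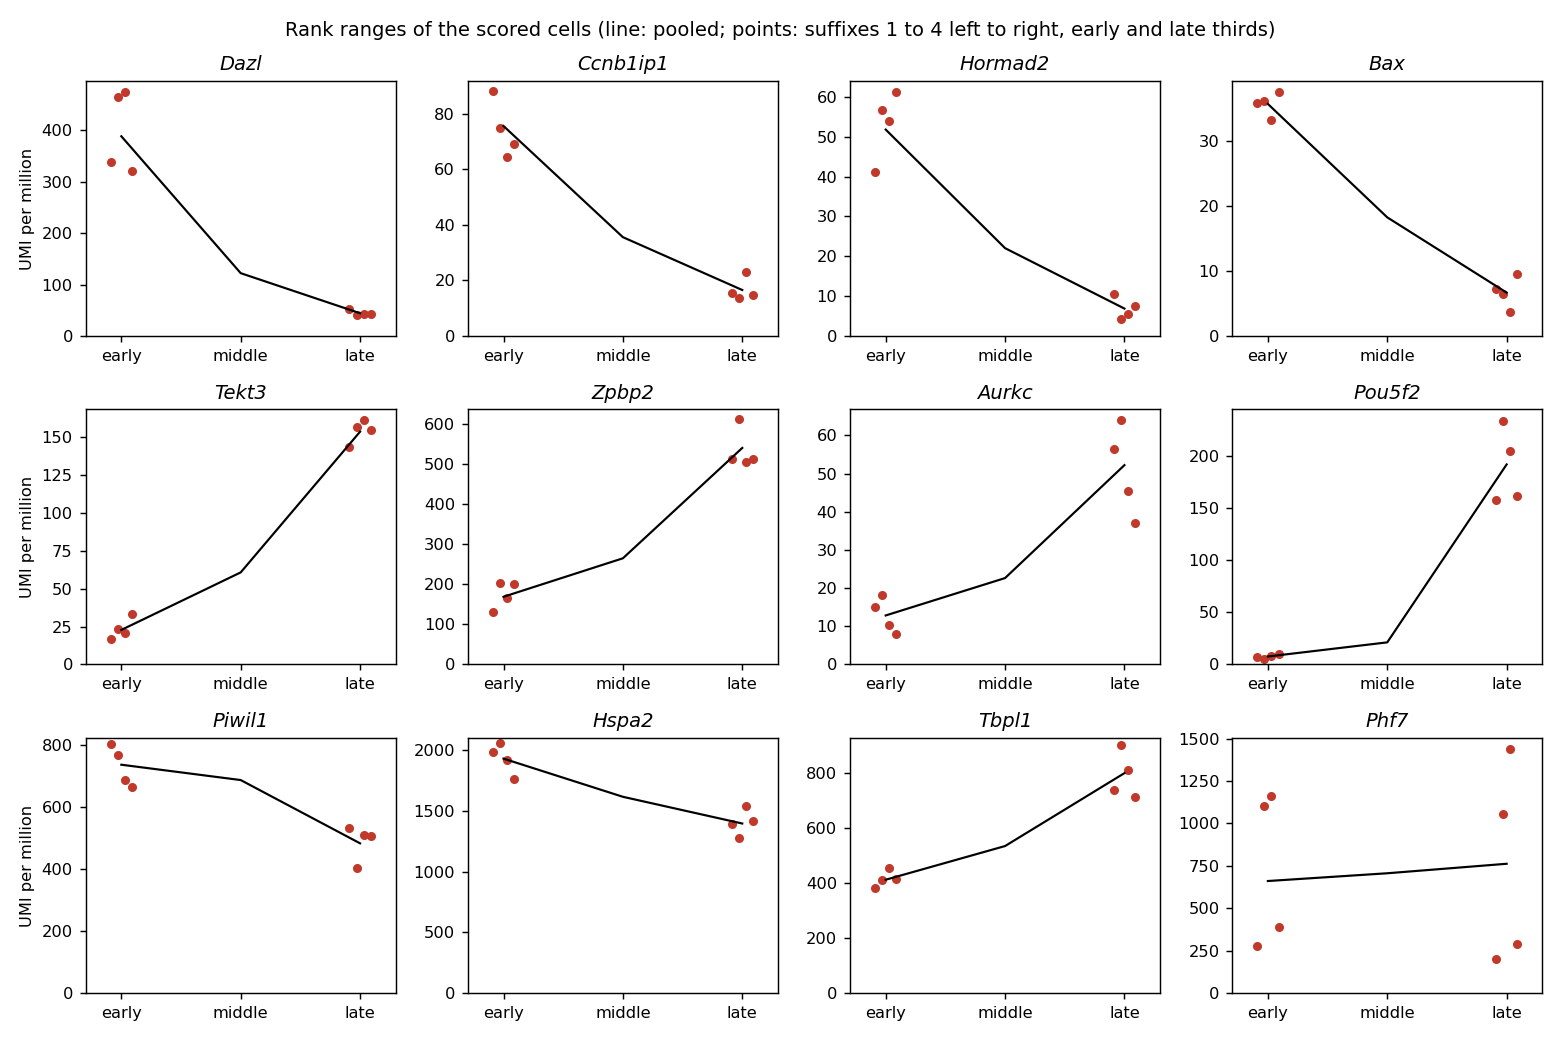
Levels of 12 genes in CPM in the early, middle and late ranges of the 331 scored pachytene to diplotene cells; lines join the pooled values and points show suffixes 1 to 4 in the early and late ranges. Dazl falls to 44.3 CPM in the late range, Tekt3 reaches 154 CPM and Pou5f2 192 CPM there, and the 4 suffixes of Phf7 lie apart in both ranges.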

How the data were processed

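UMI were counted per gene and barcode by the authors with Cell Ranger 3.0.2, per the file headers, and deposited as raw counts for 28692 genes and 32273 barcodes; bcl2fastq 2.19.1.403 and mm10 are given in the submitters' processing notes. Any step that evened out depth between libraries: not given in the sources used here. All 4 samples are pooled in the matrix, which was treated as 1 sample; no column was left unmapped. Library totals were 46961803, 44447735, 48982321 and 50353091 UMI in suffixes 1 to 4, of which the 408 cells held 3190641, 2500952, 2362818 and 2349166.

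Counts were summed per gate and scaled to CPM. The comparison gates mirrored the rule; the spermatogonia gate needed 5 UMI of its markers, the Leydig gate 20 UMI and 0.5% of UMI, and the macrophage gate 10 UMI and 0.5%. Intervals are 95% (exact conditional binomial for ratios, Clopper-Pearson for shares) and cover counting error only. No doublet caller was run; an alternative left out the 5% of barcodes with the most UMI. Chromosomes came from GENCODE M21, where 28416 gene IDs were found. Promoters came from RefSeq (GRCm38.p6); all 4 naming genes and 8 of the 15 leading genes matched.

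The text names, for each comparison, the 10 highest and 10 lowest listed genes with at least 100 UMI and the same direction in all suffixes, the naming genes, Phf7, Brdt and Rnf8, the 15 leading genes, 8 at each end of the order, the 5 with the widest spread over suffixes and the 5 most like Pou5f2; other genes were chosen after their values were seen. The value of 1 gene that these criteria name is not reported here. Of 351 listed symbols 336 were found. The members and lists were chosen with earlier results of these data known. The edgeR test planned for the genotypes was not run. Scripts were tested on simulated data. Tools were Python 3.11.15, numpy 2.4.6, scipy 1.17.1, pandas 2.3.3 and matplotlib 3.10.9.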

Additional observations from a re-analysis of the deposited data

Results flagged for a closer look

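Some barcodes outside the gate were picked by the same Pou5f2 plus Piwil1 sums, so that signal was set by the choice. There were 11 barcodes that met every criterion except the mitochondrial limit; they had a median of 4350 UMI, 1.23% X-linked UMI and 1245 CPM of Hspa2, against 0.0567% and 1595 CPM in the 408 cells. A further 12 barcodes met every criterion except the cap on transition protein and protamine RNA, with a median of 9547.5 UMI, 0.679% X-linked UMI and 821 CPM of Hspa2. Round spermatids had 1.24% X-linked UMI and 794 CPM of Hspa2. Both sets were singled out because they hold at least 3 UMI of Pou5f2 plus Piwil1 in barcodes that no comparison used.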

How the results depend on the processing

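The X-linked share of the pachytene to diplotene cells was 0.0567%. It was 0.0489% with gate sums of at least 5 UMI, 0.134% without the 5% of barcodes with the most UMI, 0.0474% with the protamine share under 1% and 0.143% as a mean over cells; in 2 alternatives chosen after seeing the data it was 0.0487% for cells with at least 5000 UMI and 0.113% with all gates at 5000 to 20000 UMI. Over leptotene to zygotene cells 2040 genes were higher and 3429 lower; without the 5% of barcodes with the most UMI these were 1274 and 2105, and at 5000 to 20000 UMI 1127 and 1519. At that depth 891 genes, against 1680 in the full set, were higher than near the divisions and 2247, against 4159, higher than in round spermatids; fewer cells and UMI then remained. Leaving out each suffix gave X-linked shares of 0.0560 to 0.0575%, 1937 to 2030 genes higher and 3062 to 3123 lower over leptotene to zygotene cells, 1548 to 1688 and 2303 to 2411 over the cells near the divisions, and 3893 to 4047 and 4847 to 4920 over round spermatids. Of 871 values of the named genes that were called, 13 came under 2-fold under an alternative. All 13 were of Hspa2 and Phf7 over round spermatids or Tbpl1 over the cells near the divisions. Most named genes were chosen for the highest or lowest ratios, so staying past 2-fold with the same sign was largely set by that choice. Counting all named genes and the number of cells, 327 of 1469 values moved, which for a gene means beyond its counting interval. At 5000 to 20000 UMI 78 moved and 41 did not, and without the 5% of barcodes with the most UMI 85 and 34. No called value changed sign under these alternatives, and 12 values of genes not called did. No paired analysis was possible because barcode suffixes could not be tied to samples; the replicate block and DESeq2 were not run for the same reason. The gate's 408 cells limit what can be seen of genes with few UMI.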
